A study of Mus musculus with 2 samples.

Results

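Calcium pumps, store-operated calcium entry genes and milk calcium regulators were examined in mammary epithelial cells (MECs) of lactating WT and *Igfbp7-/-* mice. The 10 genes were chosen by name from the 25810 gene symbols in the data. They are the plasma membrane pumps *Atp2b1*, *Atp2b2* and *Atp2b4*, the secretory pathway pumps *Atp2c1* and *Atp2c2*, the endoplasmic reticulum (ER) pump *Atp2a2*, the entry genes *Stim1* and *Orai1*, the calcium-sensing receptor gene *Casr*, and *Pthlh*. All 10 symbols had a row in both libraries, and 9 reached 1 RPM (reads per 1000000 mapped reads) in at least one of them.

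The data were 2 poly(A) RNA libraries, 1 from WT and 1 from *Igfbp7-/-* MECs, each from inguinal glands on lactation day 3. The *Igfbp7-/-* mice lacked the first exon of the gene in all tissues. The sample labels give the genetic background of both libraries as C57BL/6, while the methods describe the knockout as made on CD1, and the number of animals behind each library was not given in the sources used here. Cells carrying blood or endothelial surface markers were removed with antibodies before RNA extraction, and the labels and the methods name CD35 and CD31, respectively, beside CD45 and Ter119. With 1 library per genotype no difference could be tested, and each interval below covers the counting of reads only, not the variation between animals.

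Milk carries far more calcium than plasma. The secretory cell takes calcium up at its basal side, and store-operated channels, in which the ER sensor Stim1 opens the Orai1 pore, are one route of entry into many cell types. Pumps of the secretory pathway load calcium into the Golgi, where it joins the caseins, and plasma membrane pumps export it across the cell membrane. PMCA2, the *Atp2b2* product, is known from the apical membrane of lactating cells. The calcium-sensing receptor adjusts calcium transport and the release of parathyroid hormone-related protein (PTHrP, encoded by *Pthlh*), which draws on maternal bone.

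The 6 pump genes belong to one family of P-type ATPases, so reads of one member could in principle be placed on another. To show how close they are, 30 bases of each coding sequence around the codons of the catalytic phosphorylation site are given here from the annotated transcripts of the NCBIM37 (mm9) mouse genome. The 15 bases of the 5 codons of the site, found by matching the P-type phosphorylation motif in frame, are in capitals.
Atp2b1: tgttcaGATAAAACAGGAACCctgacgatg
Atp2b2: tgctcaGACAAGACAGGAACGctgaccacc
Atp2b4: tgctccGATAAGACAGGCACActgaccatg
Atp2c1: tgttcaGATAAAACTGGAACCctgacgaag
Atp2c2: tgctctGACAAGACAGGCACTctgacagcc
Atp2a2: tgctcaGATAAGACAGGCACActtaccaca

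The 6 stretches lie within single coding exons, at chr10:98462445-98462474 (plus strand, exon 10 of *Atp2b1*), chr6:113739888-113739917 (minus, exon 9 of *Atp2b2*), chr1:135628381-135628410 (minus, exon 10 of *Atp2b4*), chr9:105347599-105347628 (minus, exon 14 of *Atp2c1*), chr8:122266510-122266539 (plus, exon 13 of *Atp2c2*) and chr5:122919380-122919409 (minus, exon 8 of *Atp2a2*). *Atp2b4* and *Atp2a2* had the same 15 bases in the site and differed at 4 of 30 bases, and *Atp2b1* and *Atp2c1* differed at 2 of 30. The most different pair, *Atp2c1* and *Atp2c2*, differed at 11 of 30 although both encode secretory pathway pumps. Over whole transcripts few stretches were shared. In all, 24 of 7033 windows of 35 bases in *Atp2b2*, 10 of 5640 in *Atp2a2* and 1 of 7096 in *Atp2b1* occurred exactly in a protein-coding transcript of another gene, and no window of the other 7 genes did. When up to 3 mismatches were allowed, the limit used in mapping, 7.76% of the *Atp2b2* windows matched another calcium ATPase transcript, most of them in *Atp2b3*, a gene with 2 reads in WT and 0 in *Igfbp7-/-*. The shares were 3.14% for *Atp2b4*, 1.94% for *Atp2b1*, 1.35% for *Atp2a2* and 0.0415% for *Atp2c1*, and *Atp2c2* and the 4 genes that are not pumps had no such window.

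In the NCBIM37 annotation *Pthlh* lies at chr6:147200623-147212689 on the minus strand with 4 exons, *Casr* at chr16:36493782-36562227 on the minus strand with 7, *Stim1* at chr7:109416338-109585362 on the plus strand with 12 and *Orai1* at chr5:123465083-123480459 on the plus strand with 2, exons counted in the longest transcript of each. Exons of the 10 genes shared no base with a gene on the same strand, and 7 bases of *Orai1* were shared with *Kdm2b* on the other strand.

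The counts and RPM together gave a depth of 34327854 mapped reads (WT) and 35016847 (*Igfbp7-/-*). Genes with a symbol held 82.3% and 72.3% of them, and ribosomal RNA 2.95% and 3.15%. The targeted gene *Igfbp7* had 5224 reads in WT and 37 in *Igfbp7-/-*. Milk protein genes were abundant in both libraries, with *Csn2* (β-casein) at 53087 RPM (WT) and 19970 RPM (*Igfbp7-/-*). Of 6 secretory luminal markers, 3 were lower in *Igfbp7-/-* (*Csn2*, *Wap* and *Lalba*) and 2 were higher, the luminal keratins *Krt8* (268.1 and 789.0 RPM) and *Krt18* (250.4 and 1174 RPM). Markers of other cells were present and differed between the libraries. The depletion was aimed at blood and endothelial cells, not at myoepithelial cells, fibroblasts or adipocytes. The paper measured the lineage-positive cells left after it and deemed them insignificant. In *Igfbp7-/-*, 6 of 7 myoepithelial markers (summed level 3141 RPM in WT and 1052 RPM in *Igfbp7-/-*), 4 of 5 endothelial markers (1075 and 353.0 RPM) and 5 of 6 leukocyte markers (171.0 and 69.3 RPM) were lower by at least 1.5-fold, and none of these markers was at 0 in either library. Fibroblast markers were lower in 3 of 5 cases and summed to 8658 and 4498 RPM. The 3 erythroid markers above 1 RPM stayed within 1.5-fold, and that list summed to 888.8 and 998.1 RPM. Of 3 adipocyte markers above 1 RPM, 2 were lower and 1 was higher, with list sums of 19.4 and 19.0 RPM. The 5 hormone-sensing luminal markers above 1 RPM were all higher, and the list of 6 summed to 38.3 and 129.7 RPM.

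The ER pump gene *Atp2a2*, which encodes SERCA2, the pump that refills the ER store, had the highest level of the 10 genes per length. Its level was 96.2 RPKM (RPM per kilobase of gene length) in WT (95% exact Poisson interval on read pairs, 94.3 to 98.2) and 59.7 RPKM in *Igfbp7-/-* (58.2 to 61.2). *Atp2b1* was next at 23.4 and 29.8 RPKM. *Orai1* (13.4 RPKM), *Atp2c2* (12.7) and *Atp2b4* (10.8) followed in WT, where the intervals of *Orai1* and *Atp2c2* overlapped. *Atp2c1* (6.98 RPKM), *Pthlh* (6.70) and *Stim1* (6.43) could not be ordered in WT within the counting intervals. *Atp2b2* was the lowest gene with reads, at 1.52 RPKM in WT (1.31 to 1.76) and 1.27 RPKM in *Igfbp7-/-* (1.08 to 1.49), and 43.2% of all genes with reads in WT had a lower RPKM.

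In *Igfbp7-/-* the order below *Atp2a2* and *Atp2b1* was *Atp2c2* (16.8 RPKM), *Orai1* (12.4), *Atp2c1* (10.1), *Atp2b4* (5.75), *Stim1* (5.21), *Pthlh* (2.42) and *Atp2b2*, and there the intervals of *Atp2b4* and *Stim1* overlapped. *Atp2b4* thus stood above *Atp2c1* in WT and below it in *Igfbp7-/-*. *Casr* had no read in either library. A count of 0 allows up to 3 read pairs, or 6 reads, which is 0.175 RPM in WT and 0.171 RPM in *Igfbp7-/-*, so the receptor transcript was not detected at this depth.

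**Figure D1:**
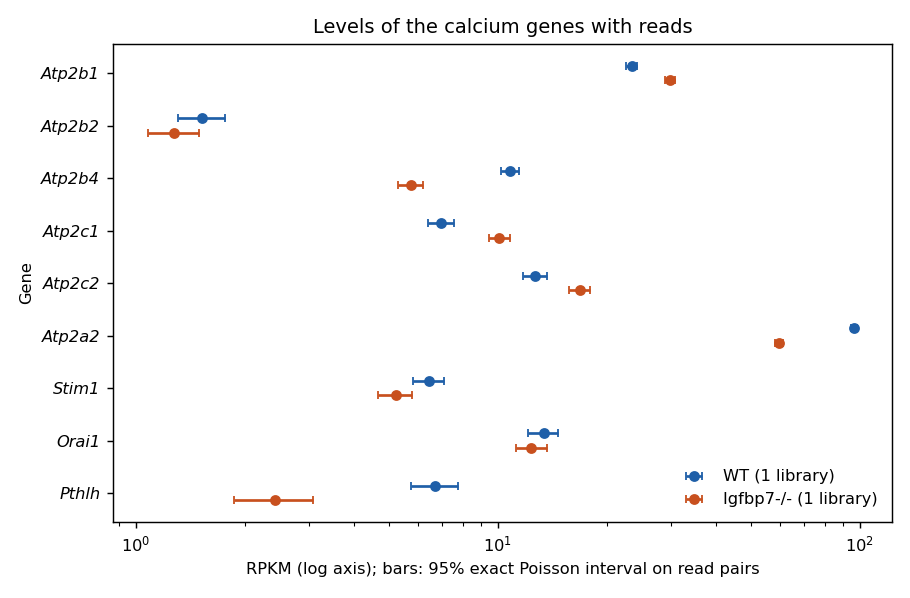
Level in RPKM on a log axis of the 9 genes with reads, for the single WT library (blue) and the single *Igfbp7-/-* library (orange), with 95% exact Poisson intervals on read pairs. *Atp2a2* lies highest in both libraries at 96.2 and 59.7 RPKM, *Atp2b2* lies lowest at 1.52 and 1.27 RPKM, and the intervals of the 2 libraries overlap for *Atp2b2* and *Orai1*.

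Between the libraries, *Pthlh*, *Atp2b4* and *Atp2a2* were lower in *Igfbp7-/-* by at least 1.5-fold, and the other 6 genes with reads stayed within 1.5-fold. Thus 3 of 9 (33.3%) were lower and 0 of 9 were higher. Of the 14026 genes that reached 1 RPM in either library, 23.0% were lower, 21.4% were higher and 44.5% were past 1.5-fold in either direction, and the 3 of 9 genes past 1.5-fold in either direction are a smaller share than that. The median log2 ratio of the 9 genes was -0.25, beside 0.03 for all genes. Ratios were taken from RPM after adding 0.1 RPM to both values. They depend on how the libraries are scaled. Scaling to reads on listed genes raised the median of all genes by 0.19 on the log2 scale, and scaling without the 20 most abundant genes lowered it by 0.15. The share of higher genes among all genes past 1.5-fold was 48.2%, and it became 62.2% and 37.4% under these scalings.

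**Figure D2:**
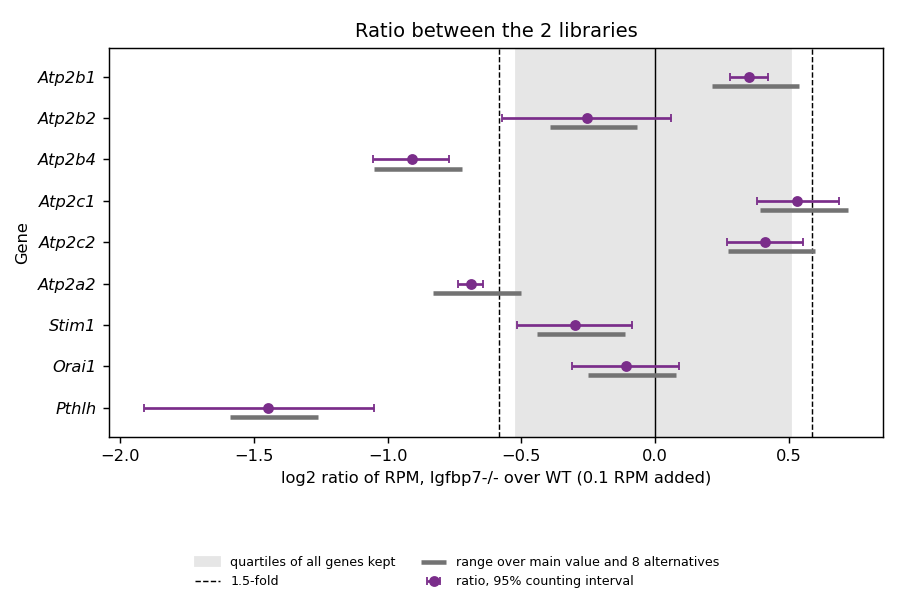
Log2 ratio of RPM in *Igfbp7-/-* over WT for the 9 genes with reads (points), with 95% Clopper-Pearson intervals on read pairs, and the range over the main value and 8 alternative pseudocounts, units and scalings (grey bars). Dashed lines mark 1.5-fold and the shaded band spans the quartiles of all 14026 genes, -0.52 to 0.51. *Pthlh*, *Atp2b4* and *Atp2a2* lie left of the dashed line, and *Atp2c1*, *Atp2c2* and *Atp2b1* lie right of 0 and inside 1.5-fold.

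Among the plasma membrane pumps, *Atp2b1*, which encodes the widely expressed PMCA1, had 5729 WT reads (166.9 RPM) against 7449 *Igfbp7-/-* reads (212.7 RPM). The log2 ratio of 0.35, with a 95% Clopper-Pearson interval on read pairs of 0.28 to 0.42, was above 0 by more than counting error and within 1.5-fold. *Atp2b4*, which encodes PMCA4, had 2333 reads (68.0 RPM) and 1265 reads (36.1 RPM), a 1.88-fold lower value (log2 ratio -0.91, -1.05 to -0.77), and 15.5% of all genes had a lower ratio. *Atp2b4* was also lower by at least 1.5-fold under every scaling tried. *Atp2b2*, the PMCA2 gene, had 369 reads (10.7 RPM) and 315 reads (8.996 RPM). Its ratio of -0.25 had an interval of -0.57 to 0.06, so a difference was not detectable at this depth.

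Ratios between genes within a library do not depend on the scaling. In WT *Atp2b4* stood at 0.46 times the RPKM of *Atp2b1*, and in *Igfbp7-/-* at 0.19 times, a change by a factor of 0.417 (exact conditional 95% interval on read pairs, 0.373 to 0.465). *Atp2b1* made up 65.5% of the summed RPKM of the 3 plasma membrane pump genes in WT and 80.9% in *Igfbp7-/-*, *Atp2b4* 30.3% and 15.6%, and *Atp2b2* 4.26% and 3.46%. The sum itself was 35.7 RPKM in WT and 36.9 RPKM in *Igfbp7-/-*. The plasma membrane pump transcripts were therefore near the same total level in deposited RPKM with a different make-up. The comparison of totals depends on the scaling, and the make-up does not. Relative to *Atp2b1*, *Atp2b2* was also lower in *Igfbp7-/-*, by a factor of 0.657 (0.527 to 0.826).

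The secretory pathway pump genes were both higher in *Igfbp7-/-*, by less than 1.5-fold. *Atp2c1*, which encodes the broadly expressed SPCA1, had 1168 WT reads (34.0 RPM) against 1722 *Igfbp7-/-* reads (49.2 RPM), with a log2 ratio of 0.53 (0.38 to 0.69). *Atp2c2*, which encodes SPCA2, a pump enriched in secretory epithelia, had 1400 reads (40.8 RPM) and 1898 reads (54.2 RPM), with a log2 ratio of 0.41 (0.27 to 0.55). The intervals left out a ratio of 1, and both genes passed 1.5-fold only when scaled to the reads on listed genes (0.72 and 0.60). The ratio of *Atp2c2* to *Atp2c1* was 1.81 in WT and 1.67 in *Igfbp7-/-* in RPKM, a change by a factor of 0.920 (0.795 to 1.06), so no difference in their proportion was detectable.

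*Atp2a2* had 19040 WT reads (554.7 RPM) against 12049 *Igfbp7-/-* reads (344.1 RPM), a 1.61-fold lower value (log2 ratio -0.69, -0.74 to -0.64). The counting interval was narrow, but the call depended on the scaling, since the ratio was -0.50, inside 1.5-fold, when scaled to the reads on listed genes. Ratios to the other pumps, which do not depend on scaling, differed by pump. *Atp2a2* stood at 13.8 times the RPKM of *Atp2c1* in WT and at 5.92 times in *Igfbp7-/-* (factor 0.429, 0.384 to 0.480). The factor was 0.467 (0.420 to 0.518) against *Atp2c2*, 0.487 (0.459 to 0.516) against *Atp2b1* and 0.741 (0.591 to 0.920) against *Atp2b2*. Against *Atp2b4* it was 1.17 (1.05 to 1.30), so *Atp2a2* was higher relative to that gene. *Atp2a2* held 63.5% of the summed RPKM of the 6 pump genes in WT and 48.4% in *Igfbp7-/-*. The share of *Atp2b1* was 15.4% in WT and 24.2% in *Igfbp7-/-*, that of *Atp2c1* 4.61% and 8.17%, and that of *Atp2c2* 8.35% and 13.6%.

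**Figure D3:**
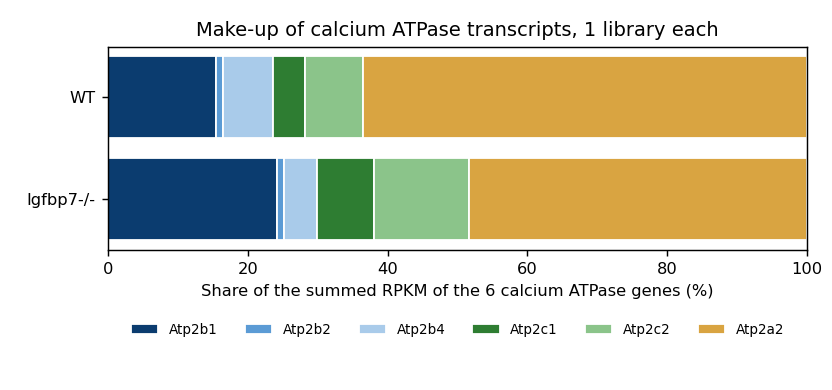
Share of each calcium ATPase gene in the summed RPKM of the 6 genes, in percent, for the single WT and the single *Igfbp7-/-* library. The *Atp2a2* share is 63.5% in WT and 48.4% in *Igfbp7-/-*, the *Atp2b1* share 15.4% and 24.2%, and the *Atp2b4* share 7.13% and 4.66%.

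The myoepithelial, endothelial, fibroblast and leukocyte marker sums given above were lower in the library in which *Atp2a2* and *Atp2b4* were lower. The secretory luminal sum was also lower there, at 26084 RPM against 67875 RPM for WT, although *Krt8* and *Krt18* of that list were higher. The erythroid and hormone-sensing luminal sums were higher, and the adipocyte sum was nearly the same. The part of any cell type in the values of these pump genes was not tested. In such bulk RNA, fewer cells of a type and less RNA per cell cannot be told apart.

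Both store-operated entry genes differed little. *Orai1*, the channel pore, had 859 WT reads (25.02 RPM) against 811 *Igfbp7-/-* reads (23.2 RPM). The log2 ratio of -0.11 (-0.31 to 0.09) became 0.08 when scaled to the reads on listed genes, so neither a difference nor its direction could be set. *Stim1*, the ER calcium sensor, had 797 reads (23.2 RPM) and 659 reads (18.8 RPM), with a log2 ratio of -0.30 (-0.52 to -0.09), within 1.5-fold. *Stim1* relative to *Orai1* changed by a factor of 0.876 (0.716 to 1.08). The other sensor gene, *Stim2*, stood at 1.16 times the RPKM of *Stim1* in WT and at 1.71 times in *Igfbp7-/-* (factor 1.48, 1.22 to 1.77), and the summed RPKM of both sensors was 13.9 and 14.1.

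*Pthlh* had the lowest ratio of the 9 genes. It had 348 WT reads (10.1 RPM) against 128 *Igfbp7-/-* reads (3.66 RPM), a 2.73-fold lower value (log2 ratio -1.45, -1.91 to -1.05), and 7.74% of all genes had a lower ratio. Over the pseudocounts, units and scalings tried the ratio stayed between -1.59 and -1.26. *Pth1r*, its receptor gene, had 8 reads in WT and 31 in *Igfbp7-/-*, below 1 RPM in both. The myoepithelial, endothelial, fibroblast, leukocyte and secretory luminal marker sums were lower in the same library. The hormone-sensing luminal sum was higher there, and the erythroid sum was higher by less than 1.5-fold. The part of any cell type in this value was not tested.

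Calcium in milk is largely bound to casein, so the pump genes were also set against the casein transcripts. The 5 casein genes together had 109570 RPM (WT) and 43110 RPM (*Igfbp7-/-*), a log2 ratio of -1.35. Of the 9 genes with reads, 8 were higher in *Igfbp7-/-* per casein read, by factors from 1.35 for *Atp2b4* to 3.67 for *Atp2c1*. Most genes would be higher on this scale, because only 9.92% of all genes had a lower ratio than *Csn1s1* (-1.26). The count of 8 is therefore not particular to these genes. *Atp2c1* had 310.5 reads per 1000000 casein reads in WT and 1141 in *Igfbp7-/-*, *Atp2c2* had 372.2 and 1257, and *Atp2b2* had 98.1 and 208.7 (factor 2.13, 1.71 to 2.65). *Pthlh* was the exception with 92.5 and 84.8 reads per 1000000 casein reads (factor 0.916, 0.677 to 1.23), so a difference from the caseins was not detectable.

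Around these genes, 119 further genes were examined in 10 lists. Most lists held genes of calcium handling and signaling, and others held serotonin and milk protein genes. Of the 119, 90 reached 1 RPM in either library. Of these 90, 26 (28.9%) were lower in *Igfbp7-/-* by at least 1.5-fold and 12 (13.3%) were higher, with a median log2 ratio of -0.23. Of the 26, 7 were milk protein genes, whose list had 7 of 9 genes lower (77.8%). The share lower over the other lists was therefore below 28.9%. Over all 14026 genes, 23.0% were lower and 21.4% were higher, and the counts of each list below are to be read beside these shares. Among other calcium ATPases and their regulators, 2 of 5 were lower and none was higher. Of 7 other store-operated entry genes, 1 was lower, *Orai2* (9.55 and 5.25 RPM), and the rest stayed within 1.5-fold.

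Among 12 calcium release and other channel genes, 4 were higher and 2 were lower. *Itpr3*, an ER calcium release channel, had 49.1 RPM in WT and 87.4 RPM in *Igfbp7-/-* (log2 ratio 0.83, 0.71 to 0.96). *Trpm7*, a channel for magnesium and calcium, had 71.2 and 138.1 RPM (0.96). *Trpv4*, a channel opened by stretch and osmotic change, had 62.7 and 11.8 RPM (-2.40, -2.63 to -2.19). Of 6 exchanger genes, 1 was higher, *Slc24a6* (now *Slc8b1*), the mitochondrial sodium-calcium exchanger, with 12.5 and 37.3 RPM (1.57), and 1 was lower. Of 7 mitochondrial uptake genes, 1 was lower, *1500032L24Rik* (now *Smdt1*), a subunit of the uniporter, with 17.4 and 4.31 RPM (-1.99).

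Of 13 calcium-binding proteins, 5 were lower and 1 was higher. *Casq2*, the calsequestrin of cardiac and smooth muscle stores, had 620 WT reads (18.1 RPM) against 36 *Igfbp7-/-* reads (1.03 RPM) (-4.01, -4.91 to -3.45), and *Rcn3* had 11.01 and 5.71 RPM (-0.94). *Nucb2*, which encodes nucleobindin 2, had 57.9 and 100.6 RPM (0.80). Of 13 genes of the PTHrP and calcium-sensing axis, 4 were higher and 4 were lower. *Vdr*, the vitamin D receptor gene, had 133.8 and 306.8 RPM (1.20, 1.13 to 1.27), its partner *Rxra* had 40.7 and 76.4 RPM (0.91), and *Rgs2*, a brake on Gq signaling, had 162.2 and 38.6 RPM (-2.07).

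Of 6 genes of the mammary serotonin axis, 1 was higher and none was lower. That gene was *Tph1*, the rate-limiting enzyme of serotonin synthesis, with 225 WT reads (6.55 RPM) against 1190 *Igfbp7-/-* reads (34.0 RPM) (2.36, 2.08 to 2.68). Serotonin is known to raise *Pthlh* in the lactating gland, and *Tph1* was higher and *Pthlh* lower in the same library. Serotonin was not measured, and a link between these values was not tested. Of 12 calcineurin and NFAT genes, 3 were lower and 1 was higher. *Rcan1*, an NFAT target, had 131.6 and 55.4 RPM (-1.25), *Nfatc2* had 51.6 and 32.8 RPM (-0.65), and *Ppp3r1*, the calcineurin regulatory subunit, had 122.6 and 196.2 RPM (0.68). All 7 milk protein genes were lower, with *Csn1s2b* at 300.2 and 42.4 RPM (-2.82) and *Wap* at 13731 and 3866 RPM (-1.83). The other genes of their list, *Fam20a* and *Fam20c*, stayed within 1.5-fold (38.8 and 47.6 RPM, and 31.1 and 45.3 RPM). *Fam20c* encodes the kinase of caseins in the secretory pathway.

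**Figure D4:**
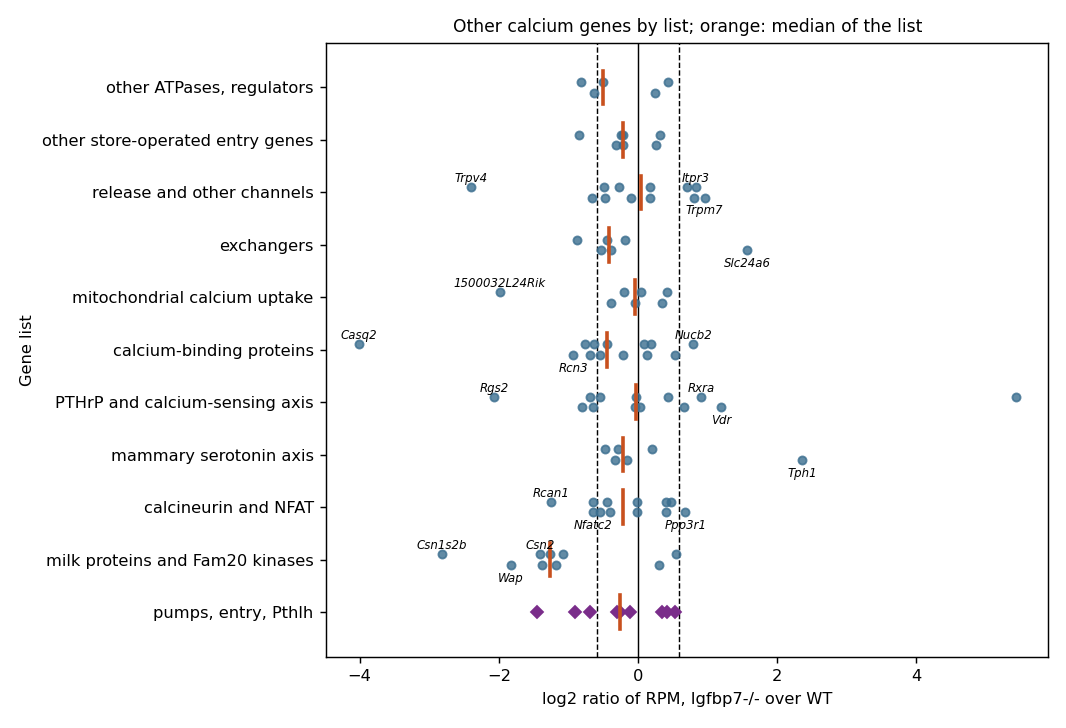
Log2 ratio of RPM in *Igfbp7-/-* over WT for the genes of the 10 lists that reached 1 RPM in either library (blue points) and the 9 genes with reads described above (purple). The median of each list is in orange, and dashed lines mark 1.5-fold. The milk protein list lies furthest left with a median of -1.26, and *Casq2* (-4.01) and *Tph1* (2.36) stand apart in their lists, as does the unlabelled point at 5.43, *Cyp24a1*, which had only 2 WT reads.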

How the data were processed

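Poly(A) RNA of lineage-depleted MECs was sequenced with paired reads on a SOLiD instrument. Per the labels, Bowtie 0.12.3, SAMtools 0.1.15 and the mm9 build were used. The methods name a human build instead, although the deposited rows are mouse genes. Annotation, strand setting and multiply mapped reads were not given in the sources used here. The authors deposited raw read counts per gene, RPM, which is the count per 1000000 mapped reads, and RPKM, which is RPM divided by gene length. The 50 rows without a symbol, with 0.0495% (WT) and 0.0670% (Igfbp7-/-) of the tabulated reads, were left out, as was an unnamed last column filled only in such rows.

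Members and lists were chosen with earlier results of these data known. Log2 ratios of RPM (0.1 added) were computed for genes reaching 1 RPM in either library, and 1.5-fold is the size threshold of the study. Low counts were mostly even (75.8% and 74.1% of counts from 1 to 20), so 95% intervals used read pairs. No test, count model or leave-one-out fit was possible with 1 library per genotype. Named genes were *Igfbp7*, the 10 members and, per list, up to 3 genes with at least 10 RPM and the largest ratios past 1.5-fold, with a few others for context (*Orai2*, *Stim2*, *Pth1r*, *Atp2b3*, *Fam20a* and *Fam20c*) chosen after their values were seen. One gene that this rule names is not reported here. Older symbols were matched to RefSeq synonyms (GRCm38.p6). Scripts were tested on simulated data. Python 3.11.15, scipy 1.17.1 and edgeR 4.0.16 (TMM factors only) were used.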

Additional observations from a re-analysis of the deposited data

How the results depend on the processing

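The genes were recomputed with other pseudocounts, RPKM, 5 other scalings or centrings, 3 other minimums, a ratio threshold of 2 and a counting interval as a second criterion. Of the 9 genes with reads, 8 kept the sign of their ratio under all 8 pseudocounts, units and scalings, and *Orai1* did not. Scaled to the reads on listed genes, 2 genes were higher (*Atp2c1* and *Atp2c2*) instead of 0, the median of the 9 genes was -0.068 instead of -0.25, *Atp2a2* was no longer past 1.5-fold, and 20 genes of the 10 lists were higher and 17 lower instead of 12 and 26. Without the 20 most abundant genes the shift was the other way, with 10 list genes higher and 36 lower and a median of the 9 genes of -0.39. With a ratio threshold of 2, 1 of the 9 genes was lower (*Pthlh*) instead of 3, and 4 list genes were higher and 12 lower. When reads per kilobase of the longest annotated transcript replaced the deposited RPKM, 6 of 9 genes kept their place in both orders of levels, while *Stim1* passed *Pthlh* in WT and *Atp2b4* in *Igfbp7-/-*. No paired analysis was possible because each genotype had 1 library. At this depth *Casr*, and differences in *Atp2b2* and *Orai1*, were not detectable.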

Other observations

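The calcium pumps were also set beside the other P-type ATPase genes, a family picked by symbol after the data were seen. The 31 such genes include the calcium pump genes *Atp2a1*, *Atp2a3* and *Atp2b3*. Of them, 22 reached 1 RPM in either library, with a median log2 ratio of 0.07. By at least 1.5-fold, 6 (27.3%) were higher and 4 (18.2%) lower in *Igfbp7-/-*, beside 21.4% and 23.0% of all genes. Among lipid flippases, *Atp8b1* had 32.3 RPM (WT) and 76.0 RPM (*Igfbp7-/-*), a log2 ratio of 1.23, and *Atp10a* had 37.5 and 14.8 RPM (-1.33). *Atp7b*, a copper pump, had 67 reads (1.95 RPM) and 253 reads (7.23 RPM), while its paralog *Atp7a* had 48.4 and 44.5 RPM.

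*Cyp24a1*, the enzyme that degrades active vitamin D and a target of the vitamin D receptor, had 2 WT reads against 235 *Igfbp7-/-* reads (6.71 RPM). The log2 ratio of 5.43 rests on those 2 reads and on the 0.1 RPM added, which exceeds the WT value of 0.0583 RPM. The 95% Clopper-Pearson interval on read pairs, computed without that addition, was 4.34 to 12.2. *Cyp27b1*, which makes active vitamin D, had 4.11 and 2.60 RPM (-0.64). Both were named after their values were seen.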
